A study of Homo sapiens with 45 samples.

Results

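Of 15029 genes tested on these arrays, 7 were picked because their transcripts fell against a negative-control precursor (miR-NC) in all 3 cell lines studied. RASSF6 and SP4 were picked for miR-203a, C9orf40, TMEM170B and KAT2B for miR-205, and OSTM1 and GPM6A for miR-429. The genes were thus chosen by their measured falls against miR-NC, which are given below as a description, with no test. HEY and SKOV3 are established ovarian cancer lines and PC3 is an established prostate cancer line. Each line received 33 nM of miR-NC or of the Pre-miR precursor of 1 of the 3 miRNAs, with Lipofectamine 2000, for 48 h. The 12 groups of 3 arrays made this way gave the values below, and 9 arrays labelled untransfected were set apart. The study asked how much cancer cell types differ in their response to miRNAs that move cells towards an epithelial state.

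A microRNA (miRNA) guides Argonaute proteins to messenger RNAs through its seed, the bases near its start, and paired transcripts are repressed and often degraded. A transfected precursor raises the mature miRNA far above its usual level, and transcripts without a site can change as well, through the genes that the miRNA lowers. All 3 miRNAs are known for their high level in epithelial cells, and miR-429 belongs to the miR-200 family, which represses inducers of the mesenchymal state.

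The mature sequences, from RefSeq on GRCh38.p14, are shown because their seeds (bases 2 to 8, in capitals) set apart the 3 treatments that the 7 genes were picked for. The labels name no arm, so the arm that usually acts was taken.
hsa-miR-203a-3p: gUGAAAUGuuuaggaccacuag
hsa-miR-205-5p: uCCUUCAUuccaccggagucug
hsa-miR-429: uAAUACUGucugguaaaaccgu
The seeds of miR-203a and miR-205 matched at 0 of 7 positions, those of miR-205 and miR-429 at 2, and those of miR-203a and miR-429 at 3. The seed of miR-429 is shared with hsa-miR-200b-3p and hsa-miR-200c-3p, and 0 other mature sequences in the table shared that of miR-203a or miR-205. The genes of the 3 miRNAs lie on the plus strand, miR-203a at chr14:104117469-104117490, miR-205 at chr1:209432166-209432187 and miR-429 at chr1:1169055-1169076. Whether the 7 transcripts carry sites for these seeds was not analysed here.

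All values are log2 intensities, so a difference of 1 is a change of 2-fold. The median of all values on the transfected arrays, 4.88, was taken as the level near background, and a difference between means below it says little about size. Array medians lay between 4.49 and 4.98, and arrays of a group correlated at 0.981 to 0.997 across probe sets. Some defining markers set the lines apart on the transfected arrays and others did not. ERBB2, amplified in SKOV3, read 11.2 to 11.7 there and at most 7.94 in the other lines. CDH1 read 9.61 to 10.8 in PC3, at most 3.65 in HEY and 3.85 to 8.72 in SKOV3. The blood marker PTPRC stayed below the background level in every line. VIM, taken as a HEY marker, did not set HEY apart, at 11.5 to 13.2 there and 13.6 to 13.9 in SKOV3. The prostate marker HOXB13 did not set PC3 apart, at 4.85 to 8.38 there and 6.03 to 6.88 in SKOV3. HBB, a marker of red blood cells, had a median of 5.22 in SKOV3, 4.69 in HEY and 4.45 in PC3, and its part in the results was not tested. The control probe set at the 5′ end of GAPDH stood apart from miR-NC of the same line in 4 groups. In HEY the gap was 3.92 for miR-205 and -2.11 for miR-429, and in PC3 it was 4.95 for miR-203a and 3.66 for miR-205. In SKOV3 it stayed within 0.04 of miR-NC. The miR-NC groups themselves differed, at 13.7 in SKOV3, 8.37 in HEY and 5.04 ± 1.18 (SD, n = 3) in PC3. PC3 with miR-429 read 4.54. Leaving out the 4 groups thus keeps the PC3 groups with the weakest signal of this probe set. Its part in the results was not tested, and comparisons within SKOV3 are free of such gaps. Other control probe sets differed from miR-NC as well. At the 5′ end of ACTB the gap in PC3 was 3.73 for miR-203a and 2.73 for miR-205. In HEY it was 1.22 for miR-205 and -0.97 for miR-429. In HEY with miR-429 the middle and 3′ GAPDH probe sets were higher, by 1.65 and 1.31, while the 5′ one was lower. Their part was not tested. In bulk RNA, fewer cells with a transcript and less of it per cell cannot be told apart.

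**Figure D1:**
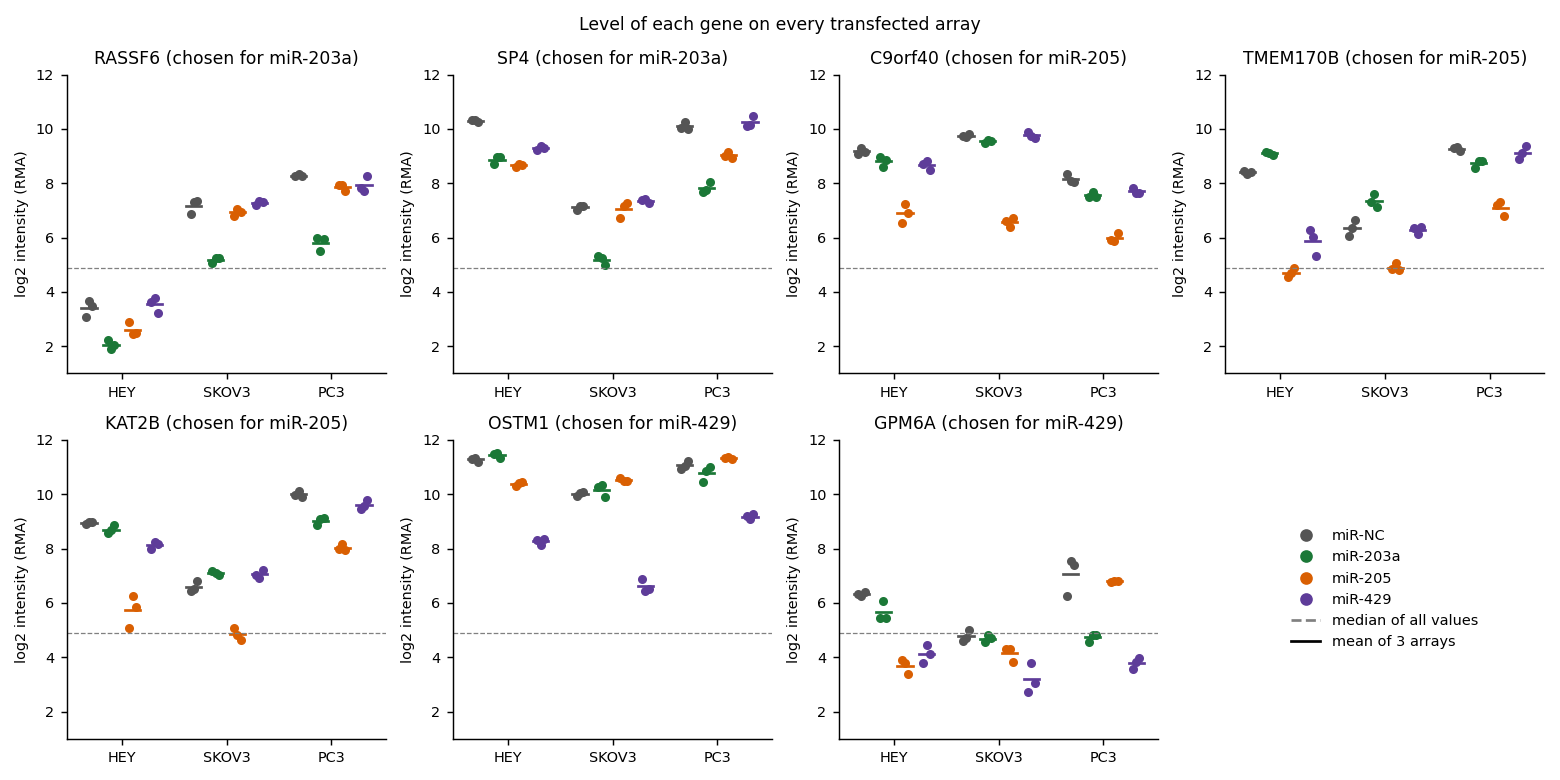
Log2 intensity of each of the 7 genes (vertical axis) on the 36 transfected arrays, by line and treatment (colour); points are arrays, short lines are means of 3 arrays and the dashed line is the median of all values, 4.88. In each of the 21 gene and line pairs, the 3 arrays with the miRNA the gene was picked for lie below the 3 miR-NC arrays.

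RASSF6 encodes a Ras-association domain protein that binds MST kinases of the Hippo pathway and promotes cell death. It lies on chromosome 4 at 73571550 to 73620631 (GRCh38.p14) and was read by probe set 229147_at. In PC3 its 3 arrays read 8.25, 8.33 and 8.26 with miR-NC, and 5.97, 5.49 and 5.95 with miR-203a. In SKOV3 they read 6.85, 7.30 and 7.35 with miR-NC, and 5.05, 5.24 and 5.24 with miR-203a. HEY held little of this transcript, with miR-NC arrays at 3.07, 3.66 and 3.48 and miR-203a arrays at 2.25, 1.91 and 2.04. The groups did not overlap in any line, but in HEY all 6 arrays lay below the background level. The falls were 2.48 in PC3, 1.99 in SKOV3 and 1.34 in HEY, each ± 0.17 (SE of the fit, n = 3 arrays per group). Over all genes, the share with all miR-203a arrays below miR-NC was 30.1% in PC3, 16.4% in SKOV3 and 21.3% in HEY.

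The differences of RASSF6 with the other miRNAs were smaller. With miR-205 it differed from miR-NC by -0.25 in SKOV3 and -0.43 in PC3, and with miR-429 by 0.11 and -0.35. Of these 4 groups, PC3 with miR-205 had all 3 arrays below miR-NC and the others overlapped it. On a second probe set, 235638_at, the differences were -0.55 in SKOV3 and -0.74 in PC3 with miR-205, and 0.019 and -0.94 with miR-429. With probe sets averaged, the PC3 difference with miR-429 was -0.67. In HEY, below the background level, it differed by -0.80 with miR-205 and 0.15 with miR-429. All 3 lines had every miR-203a array below the 9 other transfected arrays, a pattern held with miR-203a by 11.3% of genes in PC3, 6.19% in SKOV3 and 2.75% in HEY. In all 3 lines at once, 31 genes (0.206%) showed it.

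The relatives of RASSF6 moved in both directions. Of 18 tested genes of the RASSF family, the MST and LATS kinases and the partners of RASSF6 listed with them, 4 fell and 1 rose in HEY, 0 fell and 8 rose in SKOV3, and 4 fell and 8 rose in PC3 (limma, Benjamini-Hochberg adjusted p under 0.05). Over all genes with miR-203a, 10.1% fell and 8.45% rose in HEY, 7.14% fell and 9.53% rose in SKOV3, and 28.8% fell and 33.8% rose in PC3. In SKOV3, 0 fell at an unadjusted limma p under 0.05 as well. The median of the list was 0.055 in HEY, 0.31 in SKOV3 and 0.14 in PC3, beside 0.015, 0.0061 and 0.051 over all genes. RASSF1, a tumour suppressor that also binds MST kinases, rose in all 3 lines, by 0.60 ± 0.18 in HEY (adjusted p = 0.0156), 0.84 ± 0.18 in SKOV3 (0.000758) and 1.10 ± 0.18 in PC3 (3.94e-06). The HEY call was lost in a separate fit per line (adjusted p = 0.103) and without any 1 of 3 arrays, miR-NC replicate 2 (0.112) or miR-203a replicates 1 (0.102) or 3 (0.0618). RASSF9 fell by 1.64 ± 0.23 in HEY and by 2.90 ± 0.23 in PC3 and differed by -0.23 in SKOV3, where both means were below the background level. RASSF2 fell by 0.68 in HEY and rose by 0.68 in SKOV3 and by 0.53 in PC3. The HEY call of RASSF2, with both means below background, was lost without miR-203a replicate 3 (0.06), and the PC3 call without miR-NC replicate 1 (0.0869) or miR-203a replicate 2 (0.0653). STK4 and STK3, the genes of the MST1 and MST2 kinases, were named after their values were seen. STK4 passed the test in no line, and STK3 fell by 0.32 in HEY and passed it in neither of the other lines.

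SP4 encodes a zinc-finger transcription factor that binds GC-rich promoter boxes, in one family with SP1 and SP3. It lies on chromosome 7 at 21428083 to 21514822 and was read by 236265_at. The HEY arrays read 10.32, 10.33 and 10.26 with miR-NC and 8.69, 8.95 and 8.97 with miR-203a. SKOV3 read 7.03, 7.16 and 7.16 with miR-NC and 5.32, 5.24 and 4.98 with miR-203a. The PC3 values were 10.03, 10.27 and 10.01 with miR-NC and 7.69, 7.75 and 8.05 with miR-203a. The groups were well apart in every line, by falls of 2.28 in PC3, 1.94 in SKOV3 and 1.43 in HEY (each ± 0.13, SE).

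In HEY, SP4 was lower with all 3 miRNAs. With miR-205 it read 8.61, 8.69 and 8.67, a difference of -1.65 from miR-NC that is larger than the one with miR-203a, and with miR-429 it read 9.22, 9.39 and 9.29, a difference of -1.01. In PC3 it differed by -1.08 with miR-205 and 0.14 with miR-429. In SKOV3 it stayed near miR-NC with both, at -0.06 and 0.24. A second probe set, 206663_at, was at or below 3.41 on average in every other group and averaged 6.32 ± 0.20 (SD, n = 3) in HEY with miR-429, against 3.33 ± 0.14 with miR-NC. So the direction of SP4 in HEY with miR-429 turns to 0.99 higher with the mean of both probe sets.

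The other SP factors that passed the test did so in PC3. Of 6 tested, 0 fell or rose in HEY and in SKOV3 (at an adjusted p under 0.05 in limma), while 4 fell and 1 rose in PC3, 1 of the groups in which GAPDH stood apart. As given above for miR-203a, 28.8% of all genes fell and 33.8% rose in PC3, and between 7.14% and 10.1% did so in either direction in the ovarian lines. At an unadjusted limma p under 0.05, 1 fell in HEY and 1 in SKOV3, and in SKOV3 1 SP factor passed adjustment without miR-203a replicate 1 or 3. SP3, whose product competes with SP1 for the same boxes and which was named after its values were seen, fell by 0.72 ± 0.10 in PC3 (adjusted p = 8.32e-07) and differed by -0.12 in HEY and -0.21 in SKOV3. SP8 fell by 0.88 and SP2 by 0.78 in PC3, and SP6 rose there by 0.66. The list's median was -0.23 in HEY, -0.16 in SKOV3 and -0.61 in PC3, beside 0.015, 0.0061 and 0.051 over all genes.

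C9orf40, an open reading frame of little-known function, lies on chromosome 9 at 74946583 to 74952912 and was read by 222781_s_at. In HEY it read 9.09, 9.31 and 9.15 with miR-NC and 6.55, 7.24 and 6.90 with miR-205. The SKOV3 arrays read 9.73, 9.71 and 9.80 with miR-NC and 6.63, 6.40 and 6.74 with miR-205. PC3 gave 8.33, 8.07 and 8.05 with miR-NC and 5.92, 5.87 and 6.18 with miR-205. Every miR-205 array lay more than 1 log2 unit under the lowest of the other 9 arrays of its line. The falls were 2.29 in HEY, 3.16 in SKOV3 and 2.16 in PC3 (each ± 0.13, SE), all to levels above background. Over all genes, 36.4% in HEY, 22.8% in SKOV3 and 25.3% in PC3 had all miR-205 arrays below miR-NC, and 17.8%, 8.15% and 5.3% had them below all 9 other arrays.

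With miR-203a C9orf40 differed from miR-NC by -0.38 in HEY, -0.21 in SKOV3 and -0.59 in PC3, and with miR-429 by -0.51, 0.02 and -0.45. Its second probe set, 218904_s_at, gave differences with miR-205 of -2.36, -2.23 and -2.60 in the same order of lines. Both probe sets carry the suffix of designs that can match related transcripts.

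TMEM170B encodes a small protein that spans the membrane several times, and it has 1 close relative, TMEM170A, which helps to shape the endoplasmic reticulum. It lies on chromosome 6 at 11537749 to 11583524, and 235798_at was its only probe set. In HEY it read 8.46, 8.34 and 8.42 with miR-NC and 4.54, 4.69 and 4.90 with miR-205, a fall to about the background level. The SKOV3 values were 6.06, 6.35 and 6.66 with miR-NC and 4.83, 5.05 and 4.80 with miR-205. In PC3 they were 9.29, 9.32 and 9.17 with miR-NC and 7.21, 7.30 and 6.79 with miR-205. Although the groups lay apart in each line, this gene fell least alike of the 7, by 3.70 in HEY, 1.46 in SKOV3 and 2.16 in PC3 (each ± 0.18, SE). The SKOV3 and HEY falls end near background, which limits how far they could go.

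The responses of TMEM170B to the other miRNAs pointed both ways. With miR-203a it read 7.32, 7.59 and 7.12 in SKOV3, all above miR-NC, a difference of 0.99, and in HEY the difference was 0.70 and in PC3 -0.53. With miR-429 it read 6.26, 6.01 and 5.33 in HEY, a difference of -2.54, and it differed by -0.07 in SKOV3 and -0.13 in PC3. TMEM170A fell with miR-205 in HEY, by 2.12 ± 0.13 (limma adjusted p = 1.15e-14, with 35% of all genes lower there), and not past the test in SKOV3 (-0.05) or PC3 (-0.10). HEY with miR-205 is 1 of the groups in which GAPDH stood apart.

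KAT2B encodes PCAF, an acetyltransferase that acts on histones and on factors such as p53, and works within large complexes related to SAGA. It lies on chromosome 3 at 20040446 to 20154404, and 203845_at was its only probe set. The HEY arrays with miR-NC read 8.89, 8.97 and 8.97, and those with miR-205 read 5.06, 6.24 and 5.86. SKOV3 read 6.43, 6.51 and 6.81 with miR-NC and 5.06, 4.82 and 4.65 with miR-205. The PC3 arrays read 9.98, 10.10 and 9.91 with miR-NC and 7.99, 8.17 and 7.94 with miR-205. All 3 pairs of groups were separate, with falls of 3.22 in HEY, 1.74 in SKOV3, where the mean ended just below background, and 1.96 in PC3 (each ± 0.17, SE). With miR-203a KAT2B differed by -0.24 in HEY, 0.52 in SKOV3 and -0.98 in PC3, and with miR-429 by -0.81, 0.47 and -0.40, so that in SKOV3 the other 2 miRNAs left it above miR-NC.

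The subunits and partners of PCAF and SAGA moved in both directions with miR-205. There 7 of 23 tested fell and 13 rose in HEY, 1 fell and 5 rose in SKOV3, and 3 fell and 10 rose in PC3 (limma, adjusted p under 0.05). Among all genes with miR-205, 35% fell and 35.4% rose in HEY, 11.5% fell and 20.8% rose in SKOV3, and 23.4% fell and 31.4% rose in PC3. The list's median was 0.39 in HEY, 0.12 in SKOV3 and 0.19 in PC3, beside 0.040, 0.028 and 0.056 over all genes. All genes, like the list, rose more often than they fell in each line. TADA3, an adaptor subunit that links the acetyltransferase to the rest of the complex, rose by 2.29 ± 0.17 in HEY and 1.61 ± 0.17 in PC3 and differed by 0.18 in SKOV3. SF3B5, a splicing factor that is also a SAGA subunit, rose by 1.88 ± 0.23 in PC3 and by 1.41 ± 0.23 in HEY, and differed by -0.06 in SKOV3. TRRAP, the large scaffold that activators contact, fell by 2.42 ± 0.19 in HEY and by 0.80 ± 0.19 in PC3, the latter turning to 0.020 with the mean of its probe sets. KAT2A, the paralog GCN5, was named after its values were seen. It rose in HEY, by 1.31 ± 0.22 (adjusted p = 4.77e-06), and did not pass the test in SKOV3 (-0.09) or PC3 (-0.28). The rises of TADA3, SF3B5 and KAT2A all lie in the HEY and PC3 groups in which GAPDH stood apart.

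OSTM1 encodes the partner subunit of ClC-7, the chloride-proton exchanger of lysosomes, and loss of either gives osteopetrosis, in which osteoclasts fail to resorb bone. It lies on chromosome 6 at 108041409 to 108074741 and was read by 218196_at. In HEY it read 11.31, 11.35 and 11.18 with miR-NC and 8.31, 8.12 and 8.35 with miR-429. SKOV3 gave 9.93, 10.03 and 10.10 with miR-NC and 6.89, 6.44 and 6.49 with miR-429. The PC3 values were 10.93, 11.05 and 11.21 with miR-NC and 9.18, 9.07 and 9.26 with miR-429. The groups did not overlap in any line. The falls were 3.02 in HEY, 3.41 in SKOV3 and 1.89 in PC3 (each ± 0.12, SE), all to levels well above background. Among all genes, 40.5% in HEY, 22.8% in SKOV3 and 31.3% in PC3 had every miR-429 array below miR-NC. Every miR-429 array also lay below the 9 other arrays in all 3 lines, as for 15.1%, 6.65% and 19.2% of genes.

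With miR-429 the median of all genes shifted, by -0.16 (HEY) and -0.11 (PC3). Relative to it, OSTM1 fell by 2.85 and by 1.78. All 4 OSTM1 probe sets were lower with miR-429 on every array in every line. The order of the lines differed between them, since 218196_at fell most in SKOV3 and the other 3 in HEY. Their differences were -3.02 to -4.30 in HEY, -1.44 to -3.41 in SKOV3 and -1.89 to -2.45 in PC3. On 218196_at, OSTM1 with miR-205 differed from miR-NC by -0.89 in HEY and by 0.50 in SKOV3 and 0.27 in PC3. With miR-203a it differed by 0.16, 0.14 and -0.29. The other 3 probe sets differed with miR-205 by -0.98 to -2.86 in HEY and by 0.39 to 1.10 in SKOV3 and PC3.

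Among the CLC exchangers, osteopetrosis genes and lysosomal genes listed with OSTM1, 13 of 21 tested fell and 5 rose in HEY with miR-429, 3 fell and 5 rose in SKOV3, and 5 fell and 5 rose in PC3 (limma, adjusted p under 0.05). Over all genes 39% fell and 22.9% rose in HEY, 9.89% fell and 19.2% rose in SKOV3, and 31% fell and 20% rose in PC3. The list's median was -0.44 in HEY, -0.03 in SKOV3 and 0.020 in PC3, beside all-gene medians of -0.16, -0.0028 and -0.11. CLCN6 and SNX10 fell in all 3 lines. CLCN6, a late-endosomal exchanger close to ClC-7, fell by 1.46 ± 0.14 in HEY (adjusted p = 5.7e-10), 0.78 ± 0.14 in SKOV3 (8.17e-05) and 1.27 ± 0.14 in PC3 (4.95e-08). SNX10, a sorting nexin whose loss also gives osteopetrosis, fell by 1.41 ± 0.13 (1.53e-10), 0.58 ± 0.13 (0.000835) and 0.82 ± 0.13 (7.39e-06). CLCN7, the partner of OSTM1 itself, was named after its values were seen. It fell by 0.37 ± 0.11 in HEY, where arrays overlapped, and by 0.51 ± 0.11 in PC3, and differed by -0.28 in SKOV3 (adjusted p = 0.059). CLCN4 went the other way by line, falling by 0.80 in HEY and rising by 0.78 in SKOV3 and by 1.00 in PC3, and with the mean of its probe sets its HEY and SKOV3 calls were lost (-0.17, adjusted p = 0.119, and 0.18, 0.171).

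GPM6A encodes a neuronal membrane glycoprotein of the proteolipid family that promotes the outgrowth of neurites. It lies on chromosome 4 at 175632937 to 176002393 and was read by 209469_at. The HEY arrays read 6.31, 6.24 and 6.39 with miR-NC and 3.78, 4.46 and 4.12 with miR-429. In SKOV3 the values were 4.61, 4.70 and 5.01 with miR-NC and 2.71, 3.80 and 3.05 with miR-429, with both means below background. PC3 read 6.26, 7.54 and 7.41 with miR-NC and 3.57, 3.83 and 3.96 with miR-429. The groups were separate in each line, but every miR-429 mean lay below background, so the falls of 3.28 in PC3, 2.20 in HEY and 1.59 in SKOV3 (each ± 0.26, SE) have uncertain sizes. GPM6A was also lower with other miRNAs, by -2.63 in HEY with miR-205, where it read 3.88, 3.80 and 3.37, and by -2.34 in PC3 with miR-203a. Its relative GPM6B did not pass the test in any line, with differences of -0.44 in PC3, -0.15 in HEY and 0.09 in SKOV3.

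**Figure D2:**
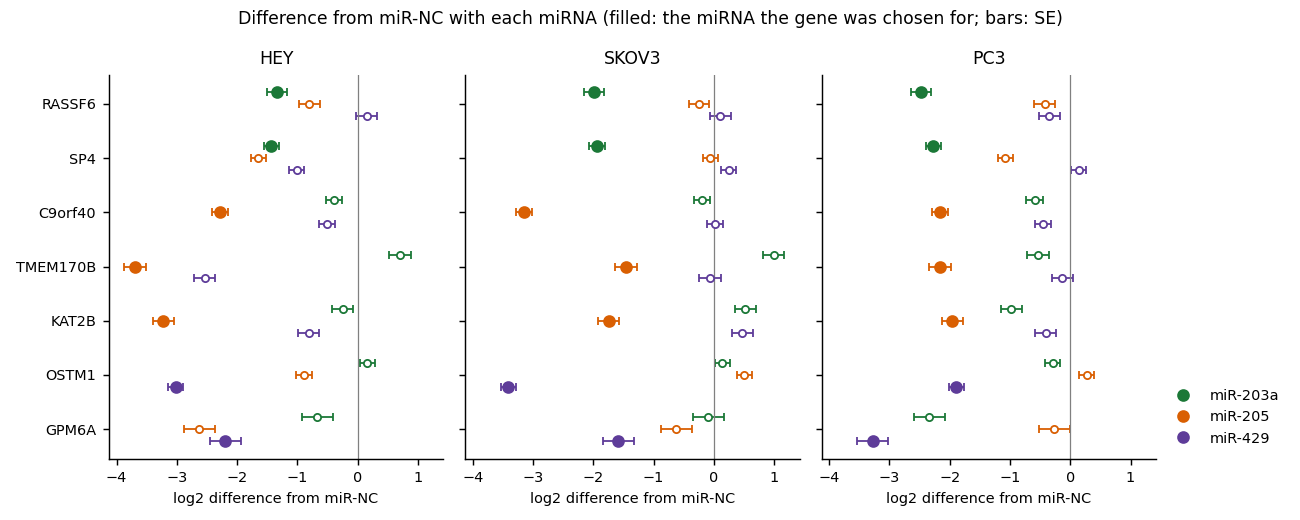
Log2 difference from miR-NC (horizontal axis) of the 7 genes in HEY, SKOV3 and PC3 with each miRNA (colour); filled points mark the miRNA a gene was picked for and bars the SE of the fit (n = 3 arrays per group). Filled points are the lowest of their gene and line except for SP4 and GPM6A in HEY, where miR-205 is lower.

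Across the 7 genes, the 21 falls with the gene's own miRNA ranged from 1.34 to 3.70 with a median of 2.16. In 4 of them 1 of the means lay below background and in 2 both did. The own miRNA gave arrays below all 9 others in 19 of 21 gene and line pairs, and the exceptions were SP4 and GPM6A in HEY. Over all genes, 2.75% to 19.2% showed this pattern, by line and miRNA. Of the 42 differences from miR-NC with the other miRNAs, 21 had all arrays below miR-NC, 7 had all above and 14 overlapped, with a median of -0.28. Among all genes, 16.4% to 40.5% had all arrays below miR-NC, by line and miRNA. The 42 comparisons share the miR-NC arrays with the ones that chose the genes, so they are values only. Those at least 1 lower numbered 6, and all lay in HEY or PC3. Shares over all genes were not taken for this count or for the 7 with all arrays above. The falls were not alike in size, since a gene's largest and smallest fall differed by 0.84 (SP4) to 2.24 (TMEM170B).

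The 7 genes lead a longer list. With miR-203a, 349 genes (2.32% of those tested) were called lower than miR-NC in all 3 lines, with miR-205 534 (3.55%) and with miR-429 434 (2.89%). Ranked by their mean difference over the lines, RASSF6 (-1.94) and SP4 (-1.88) were at ranks 1 and 2 with miR-203a, followed by LOX (-1.88), which encodes an enzyme that crosslinks collagen. C9orf40 (-2.53), TMEM170B (-2.44) and KAT2B (-2.31) were at ranks 1 to 3 with miR-205, followed by SLC4A4 (-2.30), a sodium bicarbonate cotransporter. OSTM1 (-2.77) and GPM6A (-2.35) were at ranks 1 and 3 with miR-429. WIPF1 (-2.39), which binds the actin regulator WASP, lay between them, and HMOX1 (-2.22), heme oxygenase 1, came next. These ranks rest on 1 probe set per gene. With probe sets averaged, RASSF6 came to -1.13, SP4 to -1.18 and GPM6A to -1.23, each moved by over 1.5 times, while C9orf40 (-2.47) and OSTM1 (-2.75) moved little and TMEM170B and KAT2B have 1 probe set each. LOX came to -0.91 and WIPF1 to -0.66. The median mean difference over the lists was -0.78, -0.90 and -0.84. The 7 genes were chosen by these falls, so their ranks and their distance from the edge of the calls follow from that choice. Just inside was FSAF1 with miR-203a (largest adjusted p over the lines 0.0499), and just outside was S1PR3 (0.05). With miR-205 these were DPY19L2P2 (0.0498) and MED1 (0.0502), and with miR-429 LARGE2 (0.0494) and FLJ42627 (0.0506).

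**Figure D3:**
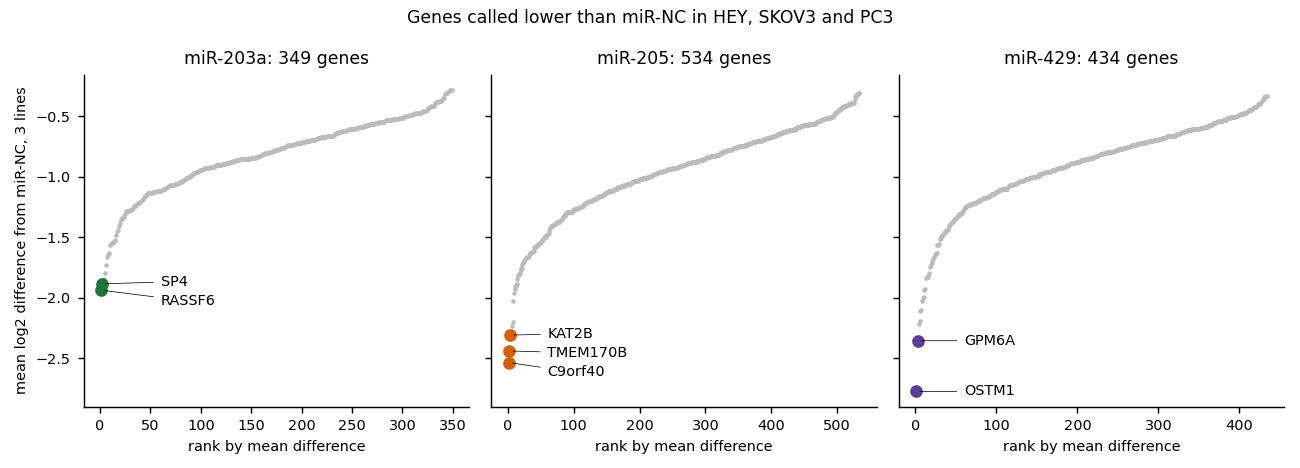
Mean log2 difference from miR-NC over HEY, SKOV3 and PC3 (vertical axis) of every gene called lower in all 3 lines, by rank (horizontal axis), for each miRNA; coloured points are the 7 genes described here. They hold ranks 1 and 2 of 349 genes, ranks 1 to 3 of 534 and ranks 1 and 3 of 434.

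Differences between the 2 miRNAs that a gene was not picked for use no array of the choice and could be tested. Over the 7 genes and 3 lines, 13 of 21 such differences passed (limma, adjusted p under 0.05), with 6 of 7 in HEY, 5 in PC3 and 2 in SKOV3. The shares over all genes were high. For miR-429 minus miR-205 they were 68.1% (HEY), 25.2% (SKOV3) and 69.7% (PC3), for miR-429 minus miR-203a 59.7%, 26.4% and 73.8%, and for miR-205 minus miR-203a 68.1%, 32% and 32%. Each HEY and PC3 comparison holds at least 1 of the 4 groups in which GAPDH stood apart.

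In SKOV3, TMEM170B was lower with miR-429 than with miR-203a, by -1.06 ± 0.18 (adjusted p = 3.26e-05). OSTM1 was 0.36 ± 0.12 higher there with miR-205 than with miR-203a (adjusted p = 0.0266). The OSTM1 call was lost after quantile normalization (0.24, adjusted p = 0.133) and without miR-203a replicate 3 (0.23, adjusted p = 0.216) or miR-205 replicate 1 (0.33, 0.0855). The other 5 genes did not pass in SKOV3. For C9orf40 the difference was 0.22, with a 95% interval of -0.05 to 0.49, and for KAT2B it was -0.05, with an interval of -0.41 to 0.31. RASSF6 and SP4, at 0.35 and 0.31, passed with the mean of their probe sets (adjusted p = 0.0213 and 0.0142), as C9orf40 did (0.36, 0.0286). SP4 also passed without miR-205 replicate 3 (0.41, 0.0308), and RASSF6 in a separate fit per line (0.0481).

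In HEY the largest differences were those of TMEM170B, -3.24 ± 0.18 for miR-429 minus miR-203a (limma adjusted p = 5.93e-15), and GPM6A, -1.96 ± 0.26 for miR-205 minus miR-203a (8.54e-08). OSTM1 followed at -1.05 ± 0.12 (1.52e-08), then RASSF6 at 0.95, below background, SP4 at 0.64 and KAT2B at -0.57. In PC3 GPM6A differed the other way, by 2.08 ± 0.26 (2.81e-07), and SP4 was 1.22 ± 0.13 higher with miR-429 than with miR-205 (1.54e-09). KAT2B (0.57), OSTM1 (0.56) and TMEM170B (0.40, adjusted p = 0.045) also passed in PC3. The TMEM170B call was lost after quantile normalization (0.0516), with the untransfected arrays in the fit (0.169) and without any of 5 of its 6 arrays, miR-203a replicates 1 to 3 (0.166, 0.0513, 0.0519) or miR-429 replicates 2 and 3 (0.0792, 0.2). KAT2B in HEY was lost in a separate fit per line (0.0541). RASSF6 in PC3, at 0.08, passed with array medians subtracted (0.50, 0.0103). C9orf40 passed in neither line, at -0.13 (95% interval -0.40 to 0.14) in HEY and 0.14 (-0.13 to 0.42) in PC3, where it passed after quantile normalization (0.39, adjusted p = 0.00841) and with array medians subtracted (0.60, 0.000247).

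A moderated F-test asked whether the same difference varied between the lines, and 6 of 7 genes passed, beside 77.6% of all genes for miR-429 minus miR-205, 79.1% for miR-429 minus miR-203a and 71.9% for miR-205 minus miR-203a. GPM6A, OSTM1, KAT2B and TMEM170B differed in opposite directions in HEY and PC3. The exception was C9orf40 (adjusted p = 0.194), which passed with array medians subtracted (0.00755) and with the mean of its probe sets (0.00704).

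The level of each gene was compared between lines on the 6 arrays per line with the 2 miRNAs it was not picked for. With the miRNAs the 5′ GAPDH probe set averaged 13.7 in each SKOV3 group, 6.25 to 12.3 in HEY and 4.54 to 9.99 in PC3. Leaving out the 4 groups in which it stood apart keeps a gap between lines, and its part was not tested. Of 21 differences 19 passed (limma, adjusted p under 0.05). The shares over all genes were 83.5% for SKOV3 minus HEY, 84.5% for PC3 minus HEY and 88.4% for PC3 minus SKOV3 on the arrays used for RASSF6 and SP4, 84.3%, 77.5% and 87.7% on those used for the miR-205 genes, and 85%, 73.3% and 85.8% on those used for OSTM1 and GPM6A.

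RASSF6 had the widest gap, 4.02 ± 0.12 higher in SKOV3 than in HEY (adjusted p = 6.21e-23) and 4.82 ± 0.12 higher in PC3 (9.5e-25), though HEY is below background. With the mean of its 3 probe sets these were 1.98 and 2.57. SP4 was lowest in SKOV3, at -1.77 ± 0.09 against HEY, and 2.43 ± 0.09 higher in PC3 than in SKOV3. Its PC3 minus HEY difference of 0.66, with overlapping arrays, turned to -0.60 with the mean of the probe sets. C9orf40 was highest in SKOV3, 0.92 ± 0.09 above HEY, and lowest in PC3, at -1.11 ± 0.09 against HEY. On average over the 2 miRNAs, TMEM170B and KAT2B were highest in PC3, 2.11 ± 0.13 and 2.22 ± 0.12 above SKOV3. For TMEM170B the HEY arrays overlapped those of both other lines, since HEY read 9.11 with miR-203a and 5.87 with miR-429. With miR-203a HEY lay above PC3, which read 8.73. Without the groups in which GAPDH stood apart, SKOV3 minus HEY rests on miR-203a alone. TMEM170B then differed by -1.77, beside -0.67 over both miRNAs. KAT2B lay at -1.33 ± 0.12 in SKOV3 against HEY. OSTM1 was lower in SKOV3 than in HEY, at -0.57 ± 0.09 with overlapping arrays. With miR-203a alone, left without the groups in which GAPDH stood apart, OSTM1 differed by -1.27. Its PC3 minus HEY difference of 0.14 did not pass (adjusted p = 0.158) but did without PC3 miR-203a replicate 1 (0.22, 0.0232). GPM6A was 1.10 ± 0.18 higher in PC3 than in HEY, with overlapping arrays. SKOV3 minus HEY was -0.25 for GPM6A (adjusted p = 0.198). Without the 4 groups it rests on miR-203a alone and was -0.96 (limma adjusted p = 0.00337).

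Under miR-NC the order of the lines was PC3, SKOV3, HEY for RASSF6 and HEY, PC3, SKOV3 for SP4, where HEY and PC3 arrays overlapped. It was SKOV3, HEY, PC3 for C9orf40 and PC3, HEY, SKOV3 for TMEM170B and KAT2B. OSTM1 went HEY, PC3, SKOV3, with HEY and PC3 overlapping, and GPM6A went PC3, HEY, SKOV3, with PC3 and HEY overlapping.

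Probe sets that the fit did not use read the same genes on the same arrays that chose them, so their values are a description and no independent reading. The 7 genes have 16 probe sets, and the 9 further ones gave 27 differences with the gene's own miRNA. In 21 of the 27 all arrays lay below miR-NC, and in 11 both means lay below background. The other 16 falls ranged from 1.14 to 4.30. The second RASSF6 probe set, 235638_at, differed by -2.03 in PC3, -1.14 in SKOV3 and -0.14 in HEY. For GPM6A, 209470_s_at differed by -2.27 in HEY, -0.55 in SKOV3 and -1.56 in PC3, and 236024_at, near background in all groups, by -0.09, -0.07 and 0.58.

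**Figure D4:**
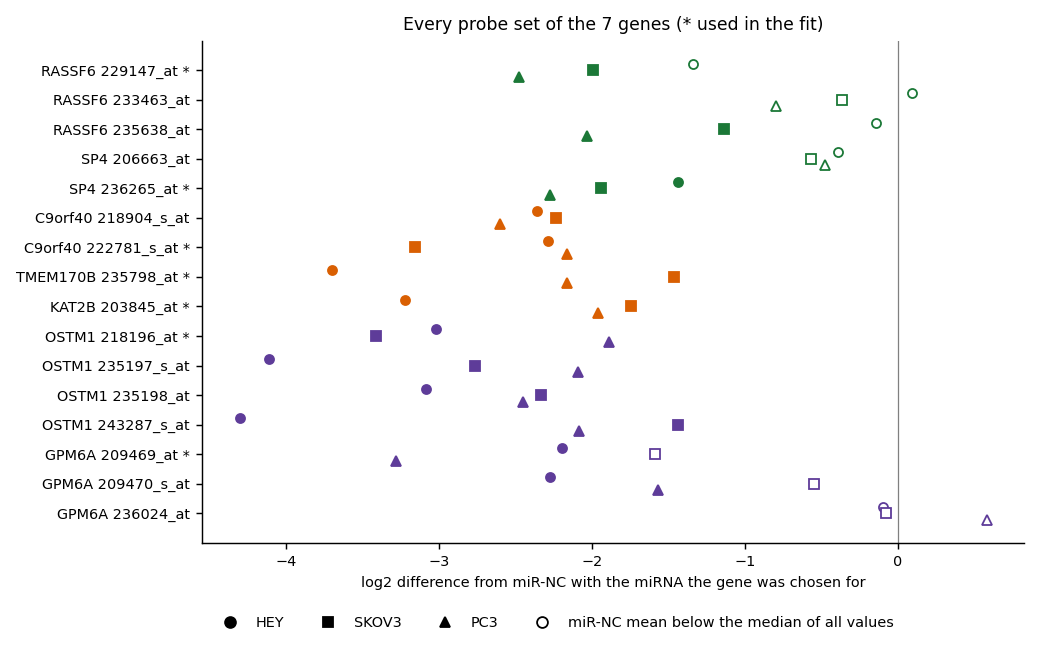
Log2 difference from miR-NC with the gene's own miRNA (horizontal axis) for all 16 probe sets of the 7 genes (vertical axis) in HEY, SKOV3 and PC3 (symbol); open symbols have a miR-NC mean below 4.88 and an asterisk marks the probe set used in the fit. The filled symbols all lie at -1.14 or lower, and the values near 0 are open.

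The falls in PC3 with miR-203a and miR-205 were also taken against each other's group. They use the arrays that chose the genes and are a description. RASSF6 was then lower by 2.05, SP4 by 1.20, C9orf40 by 1.57, TMEM170B by 1.63 and KAT2B by 0.98. All 5 were smaller than against miR-NC. In HEY the groups with miR-205 and miR-429 were taken against each other in the same way. For miR-205 minus miR-429, C9orf40 differed by -1.77, TMEM170B by -1.16 and KAT2B by -2.41. For miR-429 minus miR-205, OSTM1 differed by -2.13 and GPM6A by 0.43, so GPM6A was not lower with its own miRNA there.

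**Figure D5:**
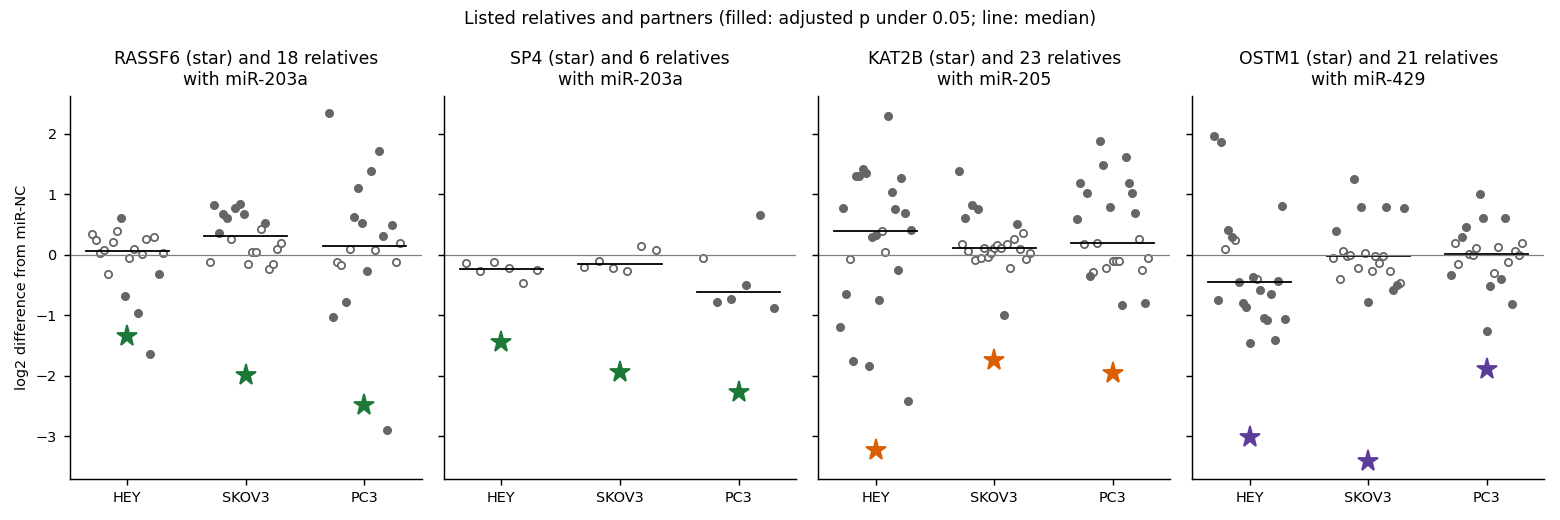
Log2 difference from miR-NC (vertical axis) of the tested relatives and partners of RASSF6, SP4, KAT2B and OSTM1 in HEY, SKOV3 and PC3, with the miRNA each gene was picked for; stars are the gene itself, filled points passed an adjusted p of 0.05 and lines are the medians of the list. In SKOV3 every star lies below all of its relatives, while in HEY and PC3 RASSF9 is lower than RASSF6. The starred genes were picked by these falls, so their low place follows from that choice.

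The genes most like each of the 7 were named by Pearson's r over the 12 transfected group means, after each line's mean was taken out. The points share lines, arrays and the 4 groups in which GAPDH stood apart, so r is a description. For RASSF6 these were TIGD7 (r = 0.95), STARD3NL (0.91) and GBE1 (0.90), and for SP4 UBR1 (0.97), YTHDF3 (0.97) and TMEM133 (0.96). C9orf40 was nearest to SUPT16H (0.99), DONSON (0.98) and CCNG1 (0.98). TMEM170B was nearest to CDKN1B (0.97), SYNRG (0.97) and HABP4 (0.96), and KAT2B to THAP12, JADE1 and JADE3 (0.97 each). OSTM1 went with FAM8A1 (0.97), LHFPL6 (0.97) and PIM2 (0.96), and GPM6A with SIRT4 (0.93), FBXL7 (0.93) and SLCO1B1 (0.91). With the mean of each gene's probe sets r fell for all genes named for SP4, to 0.35 for UBR1, 0.66 for YTHDF3 and 0.78 for TMEM133. It also fell to 0.40 for SUPT16H, 0.74 for SYNRG, 0.80 for TIGD7, 0.80 for SIRT4 and 0.83 for JADE1. Without probe sets that may cross-hybridise TIGD7 came to 0.71.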

How the data were processed

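The authors deposited log2 intensities from 45 arrays, processed with RMA per the submitters' processing notes (version not given in the sources used here). Of 54675 probe sets, 41097 carried 1 gene symbol, 1801 several and 11777 none. A probe set was kept where at least 1 group mean was above 4.88. Each gene was read by its brightest remaining probe set on average, which gave 15029 genes. Groups followed the labels. The 36 transfected arrays were fitted with limma 3.58.1 in R 4.3.3 (12 group means, 24 residual degrees of freedom), with two-sided tests adjusted by Benjamini-Hochberg per comparison. The labels do not say that arrays came from separate cultures, so the p-values cover the spread between these arrays only, which may be technical. The number of arrays limits precision. The 9 arrays labelled untransfected were left out because genes that mark the lines go against their labels. The fit was tested on simulated data.

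The 7 genes, the lists and the tests were chosen with earlier results of these data known. The rule for named genes takes the 7 genes, up to 3 genes of each list called alike in the most lines (then by mean absolute change), the non-members ranked around them, and the 3 most alike by r. Alternatives were other normalizations, filters and fits, and each array left out. Leaving out 4 groups was chosen after seeing the data.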

Additional observations from a re-analysis of the deposited data

Results flagged for a closer look

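For 6 of the 7 genes, the difference between the 2 miRNAs they were not picked for varied between the lines, by a moderated F-test in limma with Benjamini-Hochberg adjustment over all genes. Of all genes, 71.9% to 79.1% passed the same test in these comparisons, so the count is near the background. For TMEM170B, miR-429 minus miR-203a was -3.24 in HEY, -1.06 in SKOV3 and 0.40 in PC3 (adjusted p = 1.58e-12). KAT2B differed by -0.57, -0.05 and 0.57 in the same comparison (adjusted p = 0.000547). GPM6A, for miR-205 minus miR-203a, differed by -1.96 in HEY, -0.53 in SKOV3 and 2.08 in PC3 (adjusted p = 2.91e-10). OSTM1 differed by -1.05, 0.36 and 0.56 (adjusted p = 3.56e-09). SP4, for miR-429 minus miR-205, differed by 0.64, 0.31 and 1.22 (adjusted p = 0.000179), and RASSF6 by 0.95, 0.35 and 0.08 (adjusted p = 0.00576), with its HEY values below background. In HEY and PC3 every one of these comparisons holds a group in which the 5′ GAPDH probe set stood apart, by -2.11 to 4.95 from miR-NC, and its part was not tested.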

How the results depend on the processing

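The median of the 21 falls, -2.16, became -1.77 with probe sets averaged per gene, -1.94 with the other PC3 group as control and -1.89 over the 11 comparisons without the 4 groups in which GAPDH stood apart. Genes called lower in all 3 lines with miR-203a numbered 224 with all 45 arrays (main 349), and with miR-429 163 with array medians subtracted (main 434), a step that moves the median of all genes in PC3 with miR-429 from -0.11 to 0.30. Without the 4 groups, lines remain for 1 to 2 comparisons, and counts were 517 (miR-203a), 1954 (miR-205) and 943 (miR-429). There 2 of 7 differences between the other miRNAs, 10 of 10 between lines and 37 of 116 listed gene and line pairs passed. In full these were 13 of 21, 19 of 21 and 106 gene and line pairs. The reduced differences between lines use 1 miRNA group per line, and shares over all genes were not taken for the reduced fit. With the mean of probe sets SP4 turned to 0.99 (HEY, miR-429 against miR-NC) and to -0.60 (PC3 minus HEY), and TRRAP in PC3 with miR-205 to 0.020. Leaving out 1 array gave 284 to 395, 445 to 562 and 325 to 470 genes and medians of -2.21 to -2.14. Calls numbered 12 to 14 between miRNAs, 19 to 20 between lines, 6 in the F-test and 102 to 109 over listed gene and line pairs. With the replicate number as a block, though the numbers do not pair the arrays (54 same-numbered pairs, r between -0.15 and 0.23, 5 above 0.1), counts were 339, 540, 434, 13, 19, 6 and 106, and the fit changed no call on the 7 genes. GPM6A was lost under a stricter filter (7.53) and C9orf40 without probe sets that may cross-hybridise. Signal near background limits RASSF6 in HEY and GPM6A with miR-429.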

Other observations

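On the 9 arrays labelled untransfected, where genes that mark the lines go against the labels, the 7 genes had these medians. RASSF6 had a median of 9.27 on the arrays labelled HEY, 7.28 on those labelled SKOV3 and 2.93 on those labelled PC3, while the transfected HEY arrays reached at most 3.79. OSTM1 had medians of 10.2, 7.32 and 10.2, and KAT2B 7.38, 8.95 and 7.71. SP4 had medians of 6.77, 6.71 and 9.43, C9orf40 of 8.35, 7.90 and 8.16, and TMEM170B of 7.29, 4.52 and 7.06. GPM6A had medians of 3.23, 2.63 and 3.99, below the background level of 4.88 on all 3 sets. These values entered no comparison.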
